A study of Mus musculus and Homo sapiens with 20 samples.

Results

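The HSP90 paralogs HSP90AA1, HSP90AB1, HSP90B1 and TRAP1 were followed in RNA-seq counts from 3 cell lines in which HSP90 had been inhibited. They were taken from each count table as the rows whose gene symbol matched, ignoring case, which gave 4 of 63568 genes in K562, 4 of 43626 in MEF and 4 of 43626 in HPC-7. K562 cells derive from a human chronic myeloid leukaemia, MEF are fibroblasts from mouse embryos, and HPC-7 cells are blood precursors, also of the mouse. The HSP90i libraries came from cells given NVP-AUY922 for 16 h, and the dose was 300 nM for K562, 200 nM for MEF and 50 nM for HPC-7. The Control libraries came from cells given the solvent DMSO, with 3 libraries in each of the 6 groups. Nothing in the labels says that replicates were separate cultures, so the p-values measure the spread between these libraries, which may be technical. Line, species and dose differed together, so their effects cannot be told apart.

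HSP90 proteins are dimeric chaperones that use ATP to complete the folding of kinases, steroid hormone receptors and many other client proteins. HSP90AA1 encodes the stress-inducible cytosolic form HSP90α, HSP90AB1 the constitutively abundant cytosolic form HSP90β, HSP90B1 the endoplasmic reticulum (ER) form GRP94, and TRAP1 the form of the mitochondrial matrix. NVP-AUY922 occupies the ATP pocket that the family shares. Inhibitors of this kind are known to release the transcription factor HSF1, which HSP90 holds inactive, so that heat shock genes are induced, and cytosolic HSP90 genes are themselves among the textbook targets of HSF1.

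Libraries held 7936066 to 10950573 counts in K562, 10542305 to 22872539 in MEF and 10131491 to 16859394 in HPC-7, and no pair of replicates agreed within sampling noise. The chi-square per degree of freedom, which grows as libraries disagree, was largest between the first K562 Control library and the other K562 Control libraries (43.6 and 55.2). Between those others it was 5.43. Levels are given as CPM, a count relative to the size of its library, scaled by the trimmed mean of M values (TMM), a library-wide factor, so each is relative to the other mRNAs of its library. In bulk RNA a change in cell make-up and a change per cell cannot be told apart. By edgeR's quasi-likelihood test, at a Benjamini-Hochberg adjusted p under 0.05, HSP90i and Control differed for 11.1% of 13456 genes in K562 (5.11% higher, 5.97% lower), 73.4% of 12340 in MEF (35.1% higher, 38.2% lower) and 73.1% of 11703 in HPC-7 (36.5% higher, 36.6% lower), so a call alone says little about a gene in the mouse lines. K562 had 688 genes called higher and 803 lower, and this split moved to 435 and 1195 with library size alone and to 535 and 981 with upper quartile factors. It was also 173 to 1922 higher and 171 to 1995 lower as single K562 libraries were left out, with both counts highest without the first Control library. All 9 erythroid markers were at 1 CPM or more in K562, 8 of 9 fibroblast markers in MEF (Lum was under it) and all 10 blood progenitor markers in HPC-7. Some summed marker levels overlapped between HSP90i and Control, and others differed without overlap in each line. In K562 the erythroid list overlapped, at 835 to 964 CPM in HSP90i and 909 to 1240 CPM in Control. So did the epithelial list there, with CDH1 at 0, at 520 to 579 CPM in HSP90i and 482 to 765 CPM in Control. The lists that follow did not overlap. In K562 the fibroblast list was at 485 to 542 CPM in HSP90i and 646 to 797 CPM in Control. Only 3 of its 9 genes were at 1 CPM or more there, and COL1A2, PDGFRA and THY1 were at 0. The blood progenitor list in K562, with CD34 at 0, was at 721 to 769 CPM in HSP90i and 1070 to 1170 CPM in Control. In MEF the fibroblast list was at 27400 to 28700 CPM in HSP90i and 23400 to 24700 CPM in Control, and the blood progenitor list, with 6 of 10 genes under 1 CPM, at 198 to 215 CPM in HSP90i and 223 to 270 CPM in Control. In HPC-7 the blood progenitor list was at 4790 to 5160 CPM in HSP90i and 3060 to 3110 CPM in Control. The erythroid list there, of which 5 of 9 genes were in the table, was at 954 to 1110 CPM in HSP90i and 564 to 583 CPM in Control. The fibroblast list in HPC-7 was at 456 to 474 CPM in HSP90i and 534 to 588 CPM in Control. Only 2 of its 9 genes were at 1 CPM or more in that line. Col1a1, Col1a2, Col3a1, Fn1 and Pdgfra were under it, and Lum and Thy1 were at 0. The summed epithelial markers were at 6.36 to 6.87 CPM in MEF HSP90i and 1.39 to 1.61 CPM in MEF Control, with Epcam and Krt18 under 1 CPM. The summed macrophage markers there, with Lyz2 under 1 CPM, were at 10.2 to 12.7 CPM in HSP90i and 5.03 to 5.9 CPM in Control. The summed macrophage markers, with Csf1r under 1 CPM, were at 66.2 to 79.2 CPM in HPC-7 HSP90i and 34.9 to 38.8 CPM in HPC-7 Control. The summed endothelial markers, with Cdh5 and Kdr under 1 CPM, were at 40.5 to 49.9 CPM in HPC-7 HSP90i and 7.47 to 9.25 CPM in HPC-7 Control, and the epithelial markers Cdh1, Krt8 and Krt18 were at 0 in that line. Their part in the results was not tested.

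The 4 paralogs did not respond as a unit. In K562 and MEF the cytosolic pair and HSP90B1 were higher with the inhibitor and TRAP1 passed no test. In HPC-7 only Hsp90ab1 of the 4 was higher, and the others were lower. All 10 calls below were past the threshold under every alternative run within their line, and in all 10 the HSP90i and Control libraries did not overlap, as was so for 35.2% of the genes tested in K562, for 76.2% in MEF and for 77.4% in HPC-7.

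HSP90AA1 (ENSG00000080824.14) had the largest response of the 4 in K562. Its level was 4415, 5152 and 4894 CPM in the K562 HSP90i libraries, against 515, 493 and 561 CPM in the K562 Control libraries. The means were 4820.3 ± 374 CPM in HSP90i and 523 ± 34.6 CPM in Control (SD, n = 3 each), 9.22-fold apart. The log2 fold change was 3.20 ± 0.13 (SE, edgeR adjusted p = 4.42e-06), the 10th highest of the 13456 genes tested, in a line where 5.11% of genes were called higher.

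In MEF, Hsp90aa1 (ENSMUSG00000021270, chr12:110691036-110696395, GRCm38.p6) was at 1688, 1304 and 1744.5 CPM in HSP90i, against 781, 826 and 446 CPM in Control. The third Control library was lower than the others, and the Control values varied by 30.4% of their mean (coefficient of variation), the widest spread of any of the 4 genes in any group. The means of 1579 ± 239.9 CPM in HSP90i and 684 ± 208 CPM in Control (SD, n = 3 each) gave a log2 fold change of 1.21 ± 0.22 (SE, edgeR adjusted p = 0.000922), which was 1.01 without the third Control library. MEF had 35.1% of its genes called higher, and Hsp90aa1 ranked 1019th of 12340 from the highest.

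In HPC-7 the stress-inducible paralog moved the other way. Hsp90aa1 was at 347, 563 and 401 CPM in HSP90i, against 689.9, 652 and 676.5 CPM in Control. Here the inhibitor-treated libraries were the scattered ones, with a coefficient of variation of 25.8% in HSP90i and 2.88% in Control, and the second HSP90i library stood nearest to Control. The means were 437 ± 113 CPM in HSP90i and 673 ± 19.4 CPM in Control (SD, n = 3 each), and the log2 fold change was −0.62 ± 0.15 (SE, edgeR adjusted p = 0.00345). It ran between −0.86 without the second HSP90i library and −0.49 without the first, beside 36.6% of genes called lower in this line.

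**Figure D1:**
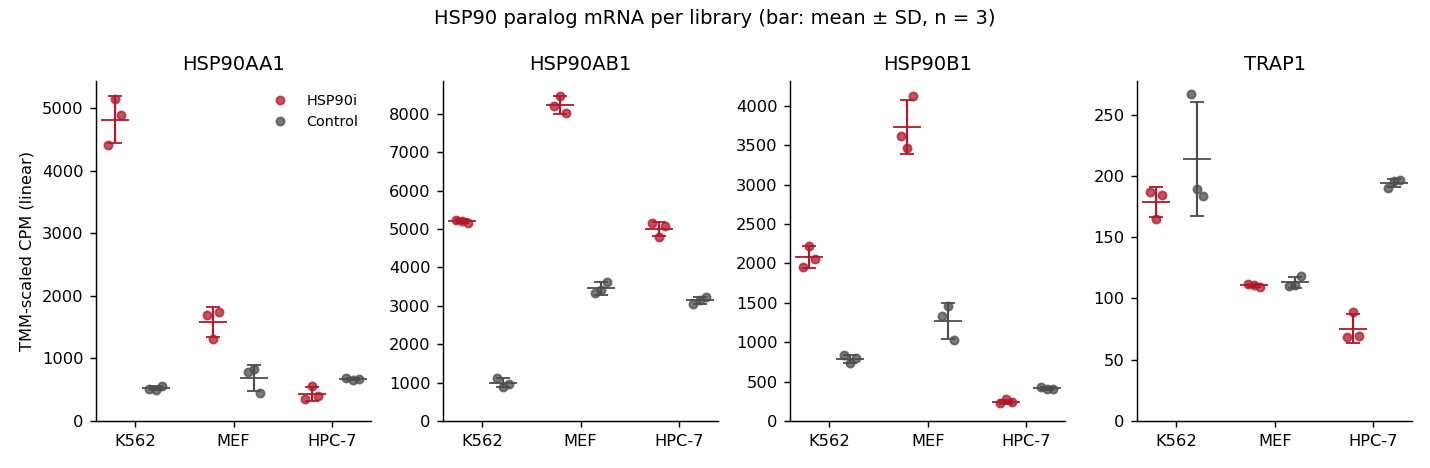
Level of each paralog in every RNA-seq library, as TMM-scaled CPM on a linear axis that starts at 0 and has its own range in each panel, with HSP90i left of Control in each line and the horizontal marks giving the mean ± SD (n = 3). HSP90AA1 in K562 sits at 4415 to 5152 CPM in HSP90i and 493 to 561 CPM in Control, while the HPC-7 HSP90i points for HSP90AA1, HSP90B1 and TRAP1 lie below their Control points.

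HSP90AB1 was the only one of the 4 that rose in all 3 lines. In K562, HSP90AB1 (ENSG00000096384.15) was at 5245, 5218 and 5157 CPM in HSP90i, against 1127, 887 and 972 CPM in Control. The HSP90i libraries were close together, with a coefficient of variation of 0.863%, against 12.2% in Control. The means of 5207 ± 44.9 CPM in HSP90i and 995 ± 121 CPM in Control (SD, n = 3 each) differed 5.23-fold, with a log2 fold change of 2.39 ± 0.13 (SE, edgeR adjusted p = 2.89e-05).

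Hsp90ab1 (ENSMUSG00000023944, chr17:45567778-45573261, GRCm38.p6) was at 8199.9, 8480 and 8025.5 CPM in MEF HSP90i, against 3323, 3403 and 3631 CPM in MEF Control. The log2 fold change was 1.25 ± 0.05 (SE, edgeR adjusted p = 9.88e-08), close in size to that of Hsp90aa1 but with replicates far tighter. In HPC-7 it was at 5148, 4796 and 5086 CPM in HSP90i, against 3043, 3151 and 3233 CPM in Control. That 1.59-fold difference, a log2 fold change of 0.67 ± 0.08 (SE, edgeR adjusted p = 2.22e-05), ranked 2410th of 11703 genes from the highest in a line where 36.5% of genes were called higher. No library of either mouse line crossed over to the other group.

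**Figure D2:**
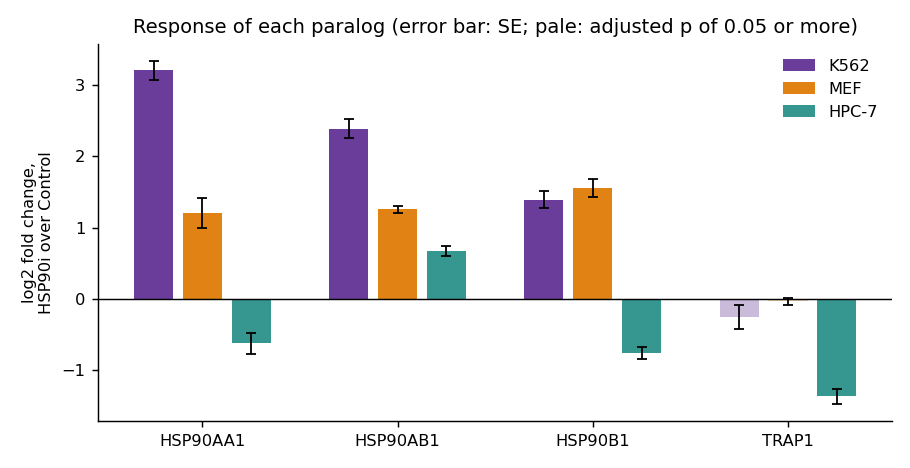
Log2 fold change of HSP90i over Control for each paralog in K562, MEF and HPC-7 (3 libraries per group, error bars: SE from edgeR, pale bars: adjusted p of 0.05 or more). HSP90AB1 is above 0 in all 3 lines, HSP90AA1 and HSP90B1 are above 0 in K562 and MEF and below 0 in HPC-7, and TRAP1 is past the threshold in HPC-7 alone.

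HSP90B1, the ER paralog, is a textbook target of the unfolded protein response. The mouse promoter is shown because its 250 bases hold the ER stress element 2 times, the motif through which ATF6 is known to act. The sequence is from RefSeq (GRCm38.p6, minus strand), at chr10:86705445-86705694, written 5′ to 3′ up to the gene start, with the fixed letters of the element in capitals.
Hsp90b1 promoter: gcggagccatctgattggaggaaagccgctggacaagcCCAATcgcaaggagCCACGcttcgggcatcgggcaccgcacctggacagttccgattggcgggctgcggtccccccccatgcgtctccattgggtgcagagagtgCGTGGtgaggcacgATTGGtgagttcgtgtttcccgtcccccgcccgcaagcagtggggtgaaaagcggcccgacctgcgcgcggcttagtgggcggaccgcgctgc
The element searched was CCAAT and CCACG separated by 9 bases of any kind, 19 letters in all, on both strands. One match lay on the gene's strand at −212 to −194 from the start, and the other on the opposite strand at −107 to −89. Only 37 of 32851 RefSeq mouse promoters of this length (0.113%), from 35 of 27025 genes, held the element, and among the other ER chaperones listed below it was found for 5 of 14 genes with a promoter (Calr, Canx, Dnajc3, Hspa5 and Pdia6). The copy of Hspa5, the main ER HSP70 BiP, is set beside those of Hsp90b1.
Hsp90b1, −212 to −194: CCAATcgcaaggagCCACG
Hsp90b1, −107 to −89: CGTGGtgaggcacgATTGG
Hspa5, −65 to −47: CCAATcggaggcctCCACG
The heat shock cores GAANNTTC and TTCNNGAA, palindromes found in 6.69% and 7.17% of the promoters and for 7.73% and 8.11% of the genes with one, were not in this window of Hsp90b1 or of Trap1, and the window of Trap1 held no ER stress element. That window, chr16:4077811-4078060 (minus strand), partly overlaps Trap1 as positioned below, where the gene reaches 4077840. Hsp90aa1 and Hsp90ab1 had no promoter in the RefSeq set used, so no element was looked for in the cytosolic pair. For the first core, 4 of the 8 cytosolic heat shock chaperone genes with a promoter had a match (Dnaja1, Hspa1a, Hspa1b and Hspb1), and for the second 1 of 8 (Hsph1). Each core was found for 2 of 7 mitochondrial chaperone genes (Hspd1 and Hspe1), for 3 of 24 co-chaperone genes and for 0 of 14 ER chaperone genes. The matches are letters in a window, and no binding was measured at them.

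In K562, HSP90B1 (ENSG00000166598.8) was at 1952, 2227 and 2054 CPM in HSP90i, against 837, 737 and 802 CPM in Control. The difference was 2.62-fold and the log2 fold change 1.39 ± 0.12 (SE, edgeR adjusted p = 0.000434). In MEF, Hsp90b1 (ENSMUSG00000020048, chr10:86690841-86705444, GRCm38.p6) was at 3612, 3465 and 4121 CPM in HSP90i, against 1332, 1455 and 1022 CPM in Control, where the third library was again the lowest. Its log2 fold change of 1.56 ± 0.13 (SE, edgeR adjusted p = 5.99e-06) was the highest of the 4 in MEF, ranked 648th of 12340, and ran between 1.46 and 1.68 as single libraries were left out. In HPC-7 the sign was opposite. Hsp90b1 was at 225, 272 and 237 CPM in HSP90i, against 434, 405.5 and 405 CPM in Control. The inhibitor-treated mean was 0.590 of the Control mean, with a log2 fold change of −0.76 ± 0.08 (SE, edgeR adjusted p = 1.92e-05).

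TRAP1, the mitochondrial paralog, passed the test in HPC-7 alone of the 3 lines. In K562, TRAP1 (ENSG00000126602.6) was at 187, 165 and 184 CPM in HSP90i, against 267, 189.6 and 184 CPM in Control. The groups overlapped, and the first Control library stood above the rest. The log2 fold change of −0.26 ± 0.17 (SE, edgeR adjusted p = 0.367) was −0.06 without that library. In MEF, Trap1 (ENSMUSG00000005981, chr16:4039971-4077840, GRCm38.p6) was at 112, 111 and 109.7 CPM in HSP90i, against 110.0, 111 and 119 CPM in Control. The log2 fold change was −0.03 ± 0.05 (SE, edgeR adjusted p = 0.577), and its sign changed under 3 alternatives. In HPC-7, Trap1 was at 68.2, 89.0 and 69.0 CPM in HSP90i, against 190.35, 196 and 197 CPM in Control. Its mean in HSP90i was 0.388 of that in Control, and the log2 fold change of −1.37 ± 0.10 (SE, edgeR adjusted p = 2.075e-06) was the 963rd lowest of 11703 genes. The lowest count of any paralog in a library was 755, for Trap1 in HPC-7 HSP90i, so none of these values rests on few reads.

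Whether the mouse lines responded by different amounts was tested directly, as the MEF response minus the HPC-7 response over the 12 mouse libraries. All 4 paralogs differed, each being higher, or less low, in MEF. In this test 43.2% of 13720 genes were called, 25.4% with the higher and 17.8% with the lower response in MEF. The called genes numbered 3488 with the higher response in MEF and 2445 with the lower, a split that moved to 2771 and 3090 with RLE factors and to 2678 and 3021 with DESeq2. The first count was 2139 to 3711 as single libraries were left out, and lowest without any 1 of the HPC-7 Control libraries. The median of all genes was 0.11 on the log2 scale, and it is subtracted in the second value given for each gene here. That median depended on the scaling and the libraries. It was −0.012 with RLE factors, −0.024 with DESeq2 and −0.106 to −0.096 without any 1 of the HPC-7 Control libraries. Hsp90b1 had a difference of 2.44 ± 0.15 (SE, edgeR adjusted p = 3e-08), or 2.33 relative to that median. Hsp90aa1 had 1.95 ± 0.28 (SE, edgeR adjusted p = 6.71e-05), or 1.845. Trap1 had 1.45 ± 0.13 (SE, edgeR adjusted p = 5.51e-07), or 1.345. Hsp90ab1 had the smallest, 0.70 ± 0.09 (SE, edgeR adjusted p = 3.70e-05), or 0.59. The lines were given 200 nM and 50 nM, and line and dose cannot be told apart.

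The Control libraries already differed between the mouse lines. Control MEF over Control HPC-7 was 3.50-fold for Hsp90b1, a log2 difference of 1.81 ± 0.11 (SE, edgeR adjusted p = 9.17e-10), in a comparison that called 83.2% of genes, 39.7% higher and 43.6% lower. Trap1 was lower in Control MEF, by a log2 difference of −0.58 ± 0.09 (SE, edgeR adjusted p = 2.24e-05). Hsp90ab1 was higher by 0.33 ± 0.07 (SE, edgeR adjusted p = 0.000323), a call lost with library size alone (0.12, adjusted p = 0.0675), a scaling under which the median of all genes was −0.295. It was 0.514 without the third HPC-7 Control library. Hsp90aa1 did not pass, at 0.22 ± 0.20 (SE, edgeR adjusted p = 0.321), but was 0.45 with an adjusted p of 0.0185 without the third MEF Control library.

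With the 12 mouse libraries scaled together, the groups took the same order for Hsp90aa1 and Hsp90b1 and another for each of Hsp90ab1 and Trap1. Hsp90aa1 averaged 1795.5 ± 270.4 CPM in MEF HSP90i, then 715 ± 204 in MEF Control and 616 ± 19.1 in HPC-7 Control, whose libraries overlapped, and 399 ± 102 in HPC-7 HSP90i (SD, n = 3 each). Hsp90ab1 ran from MEF HSP90i (9367 ± 293 CPM) through HPC-7 HSP90i (4578 ± 185) and MEF Control (3627 ± 249) to HPC-7 Control (2877 ± 83.8), with no overlap between neighbours. Hsp90b1 was likewise separated at each step, with MEF HSP90i at 4244 ± 369 CPM, MEF Control at 1329 ± 199.95, HPC-7 Control at 379.8 ± 15.8 and HPC-7 HSP90i at 224 ± 22.0. Trap1 was highest in HPC-7 Control (178 ± 2.82 CPM), followed by MEF HSP90i (126 ± 1.92) and MEF Control (119 ± 7.97), which overlapped, and was lowest in HPC-7 HSP90i (68.9 ± 10.5). For Hsp90aa1, Hsp90ab1 and Hsp90b1 the MEF and HPC-7 means were thus further apart among HSP90i libraries than among Control libraries, while Trap1, higher in MEF among HSP90i libraries, was lower in MEF among Control libraries.

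The summed counts of the 4 paralogs took a larger part of the library with the inhibitor in every line. In K562 they were 1.137, 1.22 and 1.191% of all counts in HSP90i, against 0.2699, 0.2467 and 0.2655% in Control, a 4.54-fold difference of the means. In MEF they were 1.379, 1.353 and 1.403% in HSP90i, against 0.5508, 0.5655 and 0.5202% in Control, or 2.53-fold. In HPC-7 they were 0.5752, 0.5763 and 0.5731% in HSP90i, against 0.4395, 0.4427 and 0.4465% in Control, or 1.30-fold. The groups did not overlap in any line, and the exact permutation test gave p = 0.1 in each, two-sided, the smallest that 3 against 3 libraries allow.

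The make-up of that pool was measured as each paralog's share of the 4 genes' counts. No transcript lengths were used, so a share is compared for 1 gene between groups and not between genes. In K562 the share of HSP90AA1 was 37.4, 40.4 and 39.8% in HSP90i, against 18.8, 21.4 and 22.3% in Control, a difference of 18.4 points. The share of HSP90AB1 was 42.4 ± 1.83% in HSP90i and 39.35 ± 1.45% in Control, and 1 library of each group overlapped with the other (exact permutation p = 0.2). HSP90B1 made up 16.9 ± 0.481% in HSP90i and 31.4 ± 0.821% in Control, and TRAP1 1.46 ± 0.151% in HSP90i and 8.42 ± 1.22% in Control (SD, n = 3 each). The counts in K562 HSP90i were thus weighted to the cytosolic pair although HSP90B1 itself had risen.

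In MEF the shares of the 3 rising paralogs stayed within a few points. Hsp90aa1 held 11.5 ± 1.54% in HSP90i and 12.3 ± 3.25% in Control (exact permutation p = 0.6), and Hsp90ab1 60.35 ± 3.08% in HSP90i and 62.75 ± 5.97% in Control (exact permutation p = 0.7; SD, n = 3 each). Hsp90b1 held 27.3 ± 1.87% in HSP90i and 22.9 ± 2.93% in Control, without overlap. In HPC-7 the pool shifted toward Hsp90ab1, whose share was 88.9, 83.8 and 87.8% in HSP90i, against 69.8, 71.55 and 71.7% in Control, a difference of 15.8 points. Hsp90aa1 held 7.59 ± 2.01% in HSP90i and 15.2 ± 0.549% in Control, Hsp90b1 4.245 ± 0.456% in HSP90i and 9.38 ± 0.510% in Control, and Trap1 1.31 ± 0.214% in HSP90i and 4.39 ± 0.0469% in Control (SD, n = 3 each). Every share whose groups did not overlap had an exact permutation p of 0.1, two-sided, the smallest possible here.

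**Figure D3:**
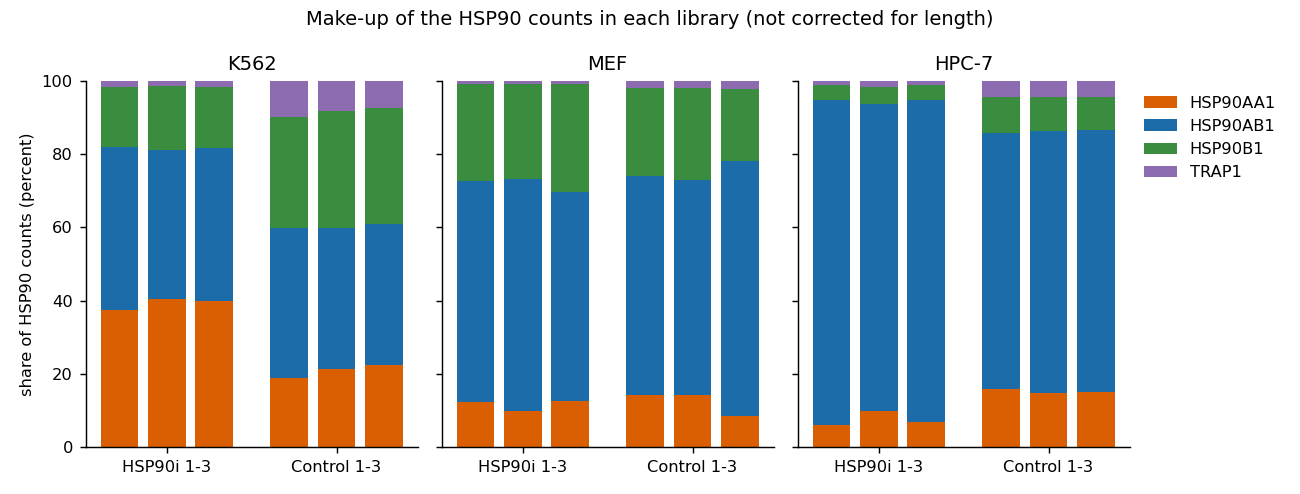
Share of each paralog in the summed HSP90 counts of every library (percent, not corrected for transcript length), 1 stacked bar per library with HSP90i replicates 1 to 3 left of Control replicates 1 to 3. The HSP90AA1 part is wider in K562 HSP90i (39.2% on average) than in K562 Control (20.8%), and the HSP90AB1 part is wider in HPC-7 HSP90i (86.9%) than in HPC-7 Control (71.0%).

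Ratios between paralogs within a library do not depend on how libraries are scaled. The log2 ratio of HSP90AA1 to HSP90AB1 was 0.81 ± 0.125 higher in HSP90i than in Control in K562 (SE), −0.01 ± 0.36 in MEF and −1.32 ± 0.24 in HPC-7. So the inducible cytosolic paralog gained on the constitutive one in K562 libraries, lost ground in HPC-7 libraries, and in MEF the difference was smaller than its error. The ratio of HSP90B1 to HSP90AB1 changed by −1.004 ± 0.077 in K562, by 0.31 ± 0.21 in MEF and by −1.44 ± 0.13 in HPC-7, and that of TRAP1 to HSP90AB1 by −2.63 ± 0.11, −1.29 ± 0.023 and −2.05 ± 0.16 (SE, same order of lines). TRAP1 was thus the only one of the 3 whose ratio to HSP90AB1 was lower with the inhibitor, without overlap, in every line. In 7 of the 9 comparisons the groups did not overlap and the exact permutation test gave p = 0.1, the smallest that 3 against 3 libraries allow, adjusted to 0.1286 over the 9. The MEF ratios of Hsp90aa1 (exact permutation p = 1.0) and of Hsp90b1 (exact permutation p = 0.2, adjusted p = 0.225) to Hsp90ab1 overlapped.

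The paralogs were then set beside chaperones of their own compartments. Among the 9 cytosolic heat shock chaperones, 9 of 9 tested rose in K562, beside 5.11% of all genes called higher. Their median log2 fold change was 3.09, against −0.02 for all genes. HSPH1, an HSP110 nucleotide exchange factor, was at 1639 ± 104 CPM in HSP90i and 81.1 ± 6.18 CPM in Control, a log2 fold change of 4.34 ± 0.14 (SE, edgeR adjusted p = 3.39e-06). HSPA8, the constitutive cytosolic HSP70, had 3.91 ± 0.13, and the inducible HSP70 genes HSPA1A and HSPA1B had 6.675 and 5.74, values that near-identical sequence may have exchanged. HSP90AA1 at 3.20 lay just above the median of this list and HSP90AB1 at 2.39 below it.

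In MEF, where 35.1% of all genes were called higher and 38.2% lower, 8 of the 9 cytosolic heat shock chaperones rose. Hspa4, another HSP110-type exchange factor, fell by 0.74 on the log2 scale. The list's median was 1.02 (all genes −0.02), with both cytosolic paralogs a little above it. Hspa8 was at 9158 ± 598 CPM in MEF HSP90i and 1596 ± 90.6 CPM in MEF Control, a log2 fold change of 2.52 ± 0.07 (SE, edgeR adjusted p = 1.67e-08). In HPC-7, where 36.5% of all genes were called higher, 5 of 8 tested rose, Hspa4 fell by 0.82, and 2 did not pass. The list's median there was 0.69. Hspa8 rose there too, with 3970 ± 180 CPM in HSP90i and 1314 ± 58.5 CPM in Control, and a log2 fold change of 1.60 ± 0.08 (SE, edgeR adjusted p = 2.64e-07). Hsph1 rose by 0.94 ± 0.08, and the inducible Hspa1b and Hspa1a by 4.66 ± 0.32 and 3.40 ± 0.53. Levels of these inducible genes were low, with means of 19.7 and 1.67 CPM in HSP90i and 0.771 and 0.135 CPM in Control. Hsp90ab1 at 0.67 was close to that median, whereas Hsp90aa1 at −0.62 lay below every tested member of the list except Hspa4.

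The cytosolic co-chaperones load clients onto HSP90 or tune its ATPase. In K562, 9 of 26 tested rose and 17 did not pass (median 0.30), beside 5.11% of all genes called higher, among them CHORDC1 with a log2 fold change of 2.48 ± 0.16, FKBP4 with 2.16 ± 0.16, CACYBP with 1.89 ± 0.12 and the ATPase activator AHSA1 with 1.81 ± 0.14. In MEF 11 rose and 11 fell of 26 (median 0.02), near the 35.1% and 38.2% of all genes, and the members named ranged from Ahsa2 at 1.502 ± 0.07 to Fkbp5 at −2.69 ± 0.10, an immunophilin that glucocorticoid receptor signalling induces. In HPC-7 9 rose and 14 fell of 26 (median −0.295), beside 36.5% and 36.6% of all genes, including Flcn at 1.52 ± 0.08 and the phosphatase Ppp5c at −1.185 ± 0.11. Fkbp5 had the lowest value of the list in HPC-7 too, at −2.94 ± 0.31. Of the 4 heat shock factors and regulators, HSBP1 alone passed in K562 (0.47, a call lost under 9 of 13 alternatives), Hsbp1 rose (0.43) and Hsf1 fell in MEF, and Hsf4 rose (1.995, with means of 1.92 CPM in HSP90i and 0.468 CPM in Control) and Hsf1 and Hsf2 fell in HPC-7. HSF1 was not called in K562 (−0.14 ± 0.19, adjusted p = 0.688) and was lower in MEF (−0.23 ± 0.05, adjusted p = 0.00396) and HPC-7 (−0.31 ± 0.11, adjusted p = 0.0312), a call lost under 2 and 5 of 14 alternatives in those lines, and that of Hsf2 in HPC-7 was lost under 5 of 14.

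Beside the 16 ER chaperones the ER paralog stood with its list in K562 and HPC-7 and apart from it in MEF. In K562, 12 of 16 rose, beside 5.11% of all genes called higher, and 4 did not pass. The median was 1.15, and HSP90B1 was at 1.39. HSPA5 was at 3238 ± 74.1 CPM in HSP90i and 952 ± 119 CPM in Control, a log2 fold change of 1.77 ± 0.13 (SE, edgeR adjusted p = 0.000184), and HERPUD1, a component of ER-associated degradation, had 1.93 ± 0.11. In MEF, 7 of 16 rose and 3 fell, beside 35.1% of all genes called higher and 38.2% lower. The median was 0.11 and the highest value 1.12 (Pdia3, a disulphide isomerase), so all 16 lay below the 1.56 of Hsp90b1. Those that fell in MEF were Hspa5, at 439.9 ± 10.04 CPM in HSP90i and 693 ± 39.6 CPM in Control (log2 fold change −0.655 ± 0.05), Manf (−0.70 ± 0.05) and Herpud1 (−0.58 ± 0.05). Of the ER chaperones whose promoter holds the same element as Hsp90b1, Hspa5 fell in MEF and Calr (0.68) and Pdia6 (0.45) rose. Canx (0.08) and Dnajc3 (0.10) were not called. Whether the element goes with the response was not tested.

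In HPC-7, 12 of the 16 ER chaperones fell and 2 rose (Sel1l at 0.50 and Herpud1 at 0.33). Of all genes in that line, 36.6% were called lower and 36.5% higher. The median of the ER list was −0.67, and Hsp90b1 was at −0.76. Hspa5 was at 111 ± 20.5 CPM in HSP90i and 301 ± 8.91 CPM in Control, a log2 fold change of −1.45 ± 0.12 (SE, edgeR adjusted p = 2.92e-06). Pdia6 had −1.37 ± 0.08, Hyou1, an ER member of the HSP110 group, −1.455 ± 0.09, and Sdf2l1 −1.96 ± 0.15.

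TRAP1 did not follow the mitochondrial chaperonin in K562 or MEF. Of the 10 mitochondrial chaperones and proteases, 3 rose in K562 and 2 fell (median 0.11), beside 5.11% and 5.97% of all genes. HSPD1, the matrix chaperonin HSP60, was at 2212 ± 134 CPM in HSP90i and 569 ± 18.7 CPM in Control, a log2 fold change of 1.96 ± 0.12 (SE, edgeR adjusted p = 4.17e-05). Its partner HSPE1 rose by 1.81 ± 0.27 and HSPA9, the matrix HSP70, by 0.57 ± 0.11, while DNAJA3 (−0.44) and GRPEL1 (−0.53) fell, and the calls of HSPA9 and DNAJA3 were lost under 4 and 7 of 13 alternatives. The call of GRPEL1, at an edgeR adjusted p of 0.0435, was not followed under the alternatives. In MEF Hspe1 (1.16 ± 0.04) and Hspd1 (0.56 ± 0.06) rose, beside 35.1% of all genes called higher. There 7 of the 10 fell, beside 38.2% of all genes called lower, and the median of the list was −0.33. The protease Htra2 had the lowest value of that list, 14.5 ± 0.793 CPM in HSP90i and 86.5 ± 2.52 CPM in Control, a log2 fold change of −2.57 ± 0.06 (SE, edgeR adjusted p = 1.34e-08). In HPC-7, where 36.6% of all genes were called lower, 8 of 10 fell and 2 did not pass, with a median of −0.75. Trap1 at −1.37 was below each of them except Hspd1, which was at 193 ± 65.9 CPM in HSP90i and 596 ± 11.7 CPM in Control (log2 fold change −1.63 ± 0.19). Hspd1 thus rose in MEF and fell in HPC-7, like Hsp90aa1 and Hsp90b1.

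**Figure D4:**
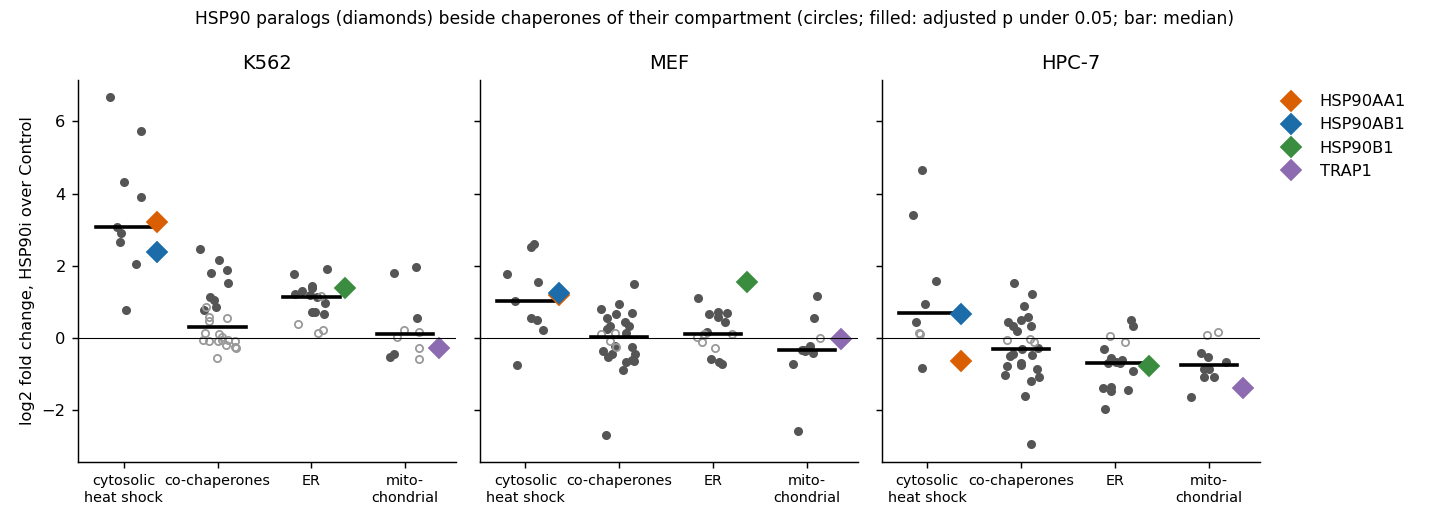
Log2 fold change of HSP90i over Control for the paralogs (diamonds) and for the listed chaperones (circles, filled where the edgeR adjusted p is under 0.05, bars at list medians) in K562, MEF and HPC-7. The HSP90B1 diamond lies above all 16 ER chaperones in MEF, the HSP90AA1 diamond lies below 0 in HPC-7 while the median of the cytosolic list there is 0.69, and the MEF diamonds of HSP90AA1 and HSP90AB1 largely coincide.

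The genes most like each paralog were found as those with the smallest root mean square difference over the 18 libraries, in log2 units relative to each line's Control mean, among 3803 genes. For HSP90AA1 they were CHORDC1 (0.563), DNAJA1 (0.581) and AHSA1 (0.627). For HSP90AB1 they were DNAJA1 (0.323), CHORDC1 (0.347) and HSPE1 (0.378). For HSP90B1 they were PDIA3 (0.36), AHSA1 (0.363) and PDIA4 (0.373). These 6 genes are all chaperones or co-chaperones of the lists above. Of the 3 named for HSP90AA1, AHSA1 alone was lower in HPC-7, with log2 fold changes of 1.81, 0.95 and −0.43 in K562, MEF and HPC-7.

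For TRAP1 the nearest genes had smaller differences, and they were the lysosomal enzyme GUSB (0.113), the glycolytic enzyme GAPDH (0.119) and PPP5C (0.123). The measure is in log2 units, so it tends to be smaller for genes that changed little, as TRAP1 did in K562 and MEF. In MEF, unlike Trap1, Gusb (−0.28) and Gapdh (−0.115) were called lower, the latter a call lost under 12 of 14 alternatives. In HPC-7 Gusb had a log2 fold change of −1.29, Gapdh of −1.24 and Ppp5c of −1.185, beside −1.37 for Trap1. Among the paralogs themselves HSP90AA1 and HSP90AB1 were the closest pair (0.684), and HSP90AA1 and TRAP1 the furthest apart (1.547). HSP90B1 was 0.742 from HSP90AB1 and 0.763 from HSP90AA1, little more than the cytosolic pair from each other. These measures describe 18 libraries in 6 groups and carry no test.

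HSP90 genes have many processed pseudogenes in the human genome, which can take reads from their parents. Of 15 listed, 9 were in the K562 table and 6 of these had no count. The 9 together had 35 counts over all 6 libraries, 0.00798% of the counts of the 4 paralogs, too few to move a share or ratio in K562. Reads that match a parent and a pseudogene equally well may go uncounted, and these counts cannot show that. Mouse pseudogenes were not looked at.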

How the data were processed

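Gene-level raw counts, whole numbers, were used as deposited by the authors. Columns named for DMSO were taken as Control. The submitters' processing notes name featureCounts, TopHat2 2.0.13, Trim Galore and Picard among their tools and GRCm38, mm10, GRCh37 and hg38 as builds, without saying which step used which. Strand use in counting: not given in the sources used here. An HSP90 ChIP-seq peak list was not used here.

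Members and lists were chosen with earlier results of these data known. Counts were filtered with filterByExpr, scaled with TMM and tested with edgeR 4.0.16 (R 4.3.3) within each line, and in 1 fit of the 12 mouse libraries for differences between lines. Biological coefficients of variation were 0.172 (K562), 0.0835 (MEF) and 0.0900 (HPC-7). Shares and ratios were compared with exact permutation tests. The planned division of shares by coding length was not made, because no lengths were used here. Mouse positions and promoters came from RefSeq, GRCm38.p6, and 2 of the 4 mouse genes had a promoter there. Named genes were the 4 members, up to 4 per list and line with the smallest p, and the 3 genes most like each member among those with a mean log2 CPM of at least 5 in each line. Others named for a small count, an extreme value or a comparison with a member were chosen after their values were seen. The fits were tested on simulated data. Alternatives were RLE and upper quartile factors, library size alone, 2 other filters, DESeq2 1.42.0, a replicate block, a joint mouse fit, other totals for shares, and each library left out. Figures were drawn with matplotlib 3.10.9.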

Additional observations from a re-analysis of the deposited data

Results flagged for a closer look

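The response to HSP90i differed between MEF and HPC-7 for all 4 paralogs, by edgeR's test of the difference itself in the 12 mouse libraries. The difference, MEF minus HPC-7 on the log2 scale, was 1.95 for Hsp90aa1 and 2.44 for Hsp90b1, which were called higher in MEF and lower in HPC-7. It was 0.70 for Hsp90ab1, called higher in both lines. It was 1.45 for Trap1, called lower in HPC-7 and not called in MEF. Leaving out single libraries kept every call, with the differences between 1.72 and 2.18 for Hsp90aa1, 2.19 and 2.52 for Hsp90b1, 0.47 and 0.78 for Hsp90ab1, and 1.24 and 1.59 for Trap1. MEF had been given 200 nM and HPC-7 cells 50 nM, and line and dose cannot be told apart.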

How the results depend on the processing

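Of 316 values of the 4 paralogs in the edgeR comparisons under alternatives, 311 kept their direction and side of the threshold. The other 5 were Trap1 in MEF, never past the threshold, at 0.071 with upper quartile factors, 0.083 in the joint mouse fit and −0.036 to 0.041 as libraries were left out, and Control MEF over Control HPC-7, where Hsp90ab1 was 0.118 with library size alone and Hsp90aa1 0.091 to 0.446 as libraries were left out. Genes called higher in K562 numbered 435 with library size alone, against 688, and 173 to 1922 as libraries were left out, with 171 to 1995 called lower. Both counts were highest without the first K562 Control library and lowest without an HSP90i library. For the difference between MEF and HPC-7, genes called higher were 2139 to 3711, lowest without any 1 of the HPC-7 Control libraries. The cause of these shifts was not tested.

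With the cytosolic pair alone as the total, the change in share of HSP90AB1 in K562 was −13.5 points and that of Hsp90ab1 in MEF 0.410. In MEF, leaving out libraries gave −2.63 to 0.233 points for the share of Hsp90aa1, −4.42 to 1.02 for that of Hsp90ab1, and −0.33 to 0.16 for the log2 ratio of Hsp90aa1 to Hsp90ab1. Among other named genes, none of them called, HSF2 in K562 was −0.056 with library size alone, −0.016 with upper quartile factors and −0.054 to 0.135 as libraries were left out, beside −0.3 to 0.151 for GAPDH, −0.26 to 0.111 for HSF1 and −0.137 to 0.026 for PPP5C. Ppp5c in MEF was 0.023 with upper quartile factors and 0.035 in the joint fit. In HPC-7, Hsbp1 was −0.018 without a filter and −0.023 to 0.033 as libraries were left out, and Dnaja1 −0.015 to 0.214.

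Replicate numbers were not taken to pair libraries. Deviations of same-numbered libraries correlated by 0.043 to 0.474 in K562, −0.29 to 0.313 in MEF and −0.121 to 0.016 in HPC-7. Those of differently numbered libraries correlated by −0.405 to 0.171 in K562, −0.362 to 0.439 in MEF and −0.116 to 0.14 in HPC-7. Pairing in K562 was therefore not excluded. With a replicate block, 872 genes were called higher and 938 lower in K562, TRAP1 there was −0.24, and no call of a paralog changed. Shares per exon or coding length were not run. Permutation tests of 3 against 3 libraries cannot pass the threshold, and no depth limit touches the paralogs.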

Other observations

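The third MEF Control library was 0.57 below the Control mean for Hsp90aa1 on the log2 scale and 0.30 below it for Hsp90b1. In HPC-7 the second HSP90i library was the nearest to Control for the 3 paralogs that fell there, at −0.26 for Hsp90aa1 (−0.955 and −0.75 in the other HSP90i libraries), −0.61 for Hsp90b1 (−0.88 and −0.81) and −1.13 for Trap1 (−1.51 and −1.49). That library had the lowest level of Hsp90ab1 of the 3, 4796 CPM.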
